A study of Mus musculus with 10 samples.

Results

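The genes described here mark 2 tissues that border the dentate gyrus, the choroid plexus and the meninges. They were read on 10 whole-transcript Affymetrix arrays of total RNA from mouse dentate gyri. A gene was taken from a probe set that names no other gene, and each measured gene had 1 such probe set. Of 31 genes listed, 29 were measured, out of 19752 genes with a value on the arrays. They were 14 of 16 choroid plexus genes and 15 of 15 meningeal genes. Enpp2 and Prlr, both on the choroid plexus list, had no such probe set and have no value here.

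The choroid plexus is a folded sheet of secretory epithelium on a vascular core that hangs into the ventricles and makes cerebrospinal fluid. Its cells import folate, carry thyroid hormone on transthyretin, and move sodium, bicarbonate, potassium, chloride and water. The meninges are sheets of fibroblasts that coat the brain, follow its vessels into the tissue, lay down collagens and small leucine-rich proteoglycans, and make retinoic acid. Neither is part of the dentate gyrus, a layer of granule neurons in the hippocampus, but both lie along its borders.

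The mice, of a strain written C56BL/6J in the labels, were 4, 6, 8, 10 or 12 weeks old, and each age had 2 arrays. No treatment or altered allele is named, so all groups share genotype and handling as far as the labels go. Both gyri were cut out with the tip of a hypodermic needle, a step described as leaving out the rest of the hippocampus, and were broken up with tweezers, DNase and a pipette. How many animals an age had is not stated, so every spread and p-value below may be partly technical. The labelled sex was female, and the levels of sex-linked genes go against that label. On all 10 arrays Xist lay between 5.41 and 6.02, under the dim reference of 7.01 defined below. The Y-linked Kdm5d lay above that reference, between 8.89 and 9.20. Levels are deposited log2 values per probe set; the log base is taken from their range, and every fold below rests on it.

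Genes of granule neurons, the main cells of the labelled tissue, were bright throughout: 0 of the 12 listed were dim, and their mean level lay between 11.27 and 11.41 on all 10 arrays. A gene is called dim where its mean over the arrays falls under 7.01, the 95th percentile of 1203 olfactory, vomeronasal and trace amine receptor genes. Of the 29 measured members 5 were dim, namely Clic6, Cldn2, Calml4, F5 and Steap1, all choroid plexus genes, and 24 were not. The array of 8 weeks replicate 1 stood apart in another way: its levels were the least spread (SD over genes 2.01, against 2.05 to 2.12 on the others), and it was the highest of the 10 arrays for 29.6% of all genes.

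The array of 6 weeks replicate 1 was the highest of the 10 for 22 of the 29 members, against 10.3% of all genes. By group these were 12 of 14 choroid plexus genes and 10 of 15 meningeal genes. The members were chosen with earlier results of these data known, so such counts describe the array and test nothing. The groups differed in size. The excess over the highest other array had a median of 0.43 over the choroid plexus genes and 0.09 over the meningeal genes. Over the other 9 arrays the range of a gene had a median of 0.52 for choroid plexus genes, 0.56 for meningeal genes and 0.31 for all genes, so both groups varied there to a like extent. Fewer cells of a type and less RNA per cell cannot be told apart in bulk tissue such as this.

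**Figure D1:**
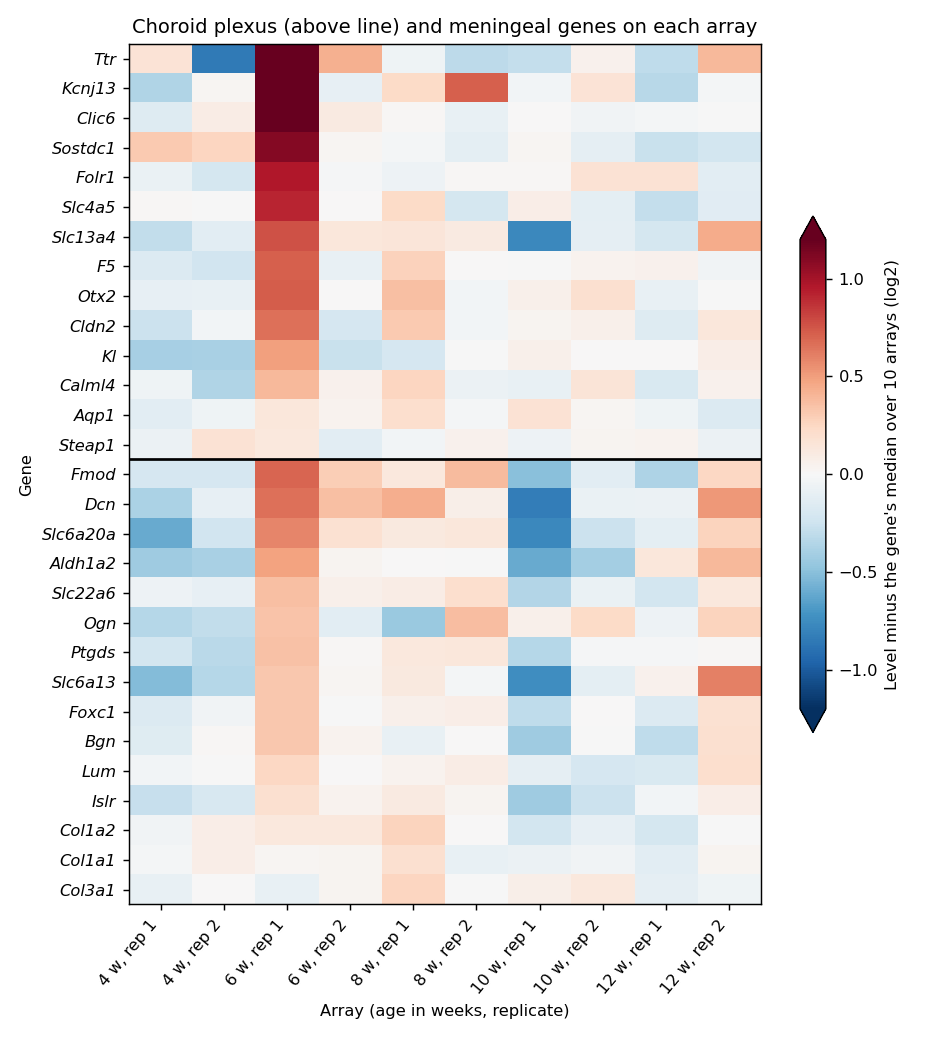
Colour shows each gene's level minus its median over the 10 arrays (log2), with genes in rows, choroid plexus genes above the line and meningeal genes below, and arrays in columns; colours stop at the ends of the scale, so the differences of Ttr, Kcnj13 and Clic6 on 6 weeks replicate 1 run past it. The red column at 6 weeks replicate 1 covers 22 of 29 genes as their highest array, and most meningeal rows are also blue at 10 weeks replicate 1 and red at 12 weeks replicate 2.

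Ttr encodes transthyretin, which carries thyroxine and retinol-binding protein and is the leading secreted product of the choroid plexus. Its levels (log2, replicate 1 and then replicate 2) were 9.88 and 8.87 at 4 weeks, 13.77 and 10.15 at 6 weeks, 9.67 and 9.41 at 8 weeks, 9.44 and 9.77 at 10 weeks, and 9.41 and 10.11 at 12 weeks. One array was thus 17.1-fold above the median of the other 9, and the other array of the same age, the highest of the remaining 9, lay just above 12 weeks replicate 2. Its excess over the highest other array, 3.62, was the largest of all 19752 genes. Its SD within ages, 1.22, was also the largest of all genes.

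Kcnj13, the inwardly rectifying potassium channel Kir7.1 of the epithelium's apical membrane, lies on chromosome 1 at 87384577 to 87394729 (GRCm38.p6, as all positions here). It was at 7.30 and 7.69 at 4 weeks, 10.34 and 7.57 at 6 weeks, 7.90 and 8.39 at 8 weeks, 7.63 and 7.83 at 10 weeks, and 7.33 and 7.64 at 12 weeks. Replicate 1 of 6 weeks was 6.49-fold above the median of the others, and its excess of 1.95 ranked 2 among all genes. Clic6, a chloride intracellular channel family gene on chromosome 16 at 92498147 to 92541241, was dim on 9 arrays, from 6.13 to 6.39, and reached 7.98 on the remaining one. That is 3.25-fold above the median of the others, and the excess of 1.59 ranked 3. The other array of 6 weeks lay inside the range of the other ages for Kcnj13 and at its upper end for Clic6.

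Smaller differences of the same shape were found for the secreted and transport genes. Sostdc1, a secreted antagonist of BMP and Wnt signals, was at 9.15 on 6 weeks replicate 1 and from 7.78 to 8.36 on the others, a 2.18-fold difference from their median. Folr1, the folate receptor that brings folate into cerebrospinal fluid, was at 8.09 there and from 6.92 to 7.30 elsewhere, or 1.97-fold. Slc4a5, a sodium bicarbonate cotransporter, was at 8.12 there and from 6.92 to 7.44 elsewhere, or 1.88-fold. None of these 3 genes overlapped with its other 9 values, and their excesses over the highest of them were 0.79, 0.79 and 0.68.

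The remaining choroid plexus genes form a descending series with no sharp break. The sulfate cotransporter gene Slc13a4 was 1.83-fold above the median of the other arrays, and the gene of coagulation factor V, F5, was 1.66-fold above. The homeobox gene Otx2, needed to form and keep choroid plexus epithelium, was 1.65-fold above (7.67 against 6.85 to 7.31). Cldn2, the claudin of its leaky tight junctions, was 1.62-fold above, Kl, the hormone co-receptor Klotho, 1.40-fold, and the calmodulin-like gene Calml4 1.36-fold. In these 6 genes the array still ranked highest of the 10.

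The exceptions among choroid plexus genes were Aqp1 and Steap1. Aqp1, the water channel of the apical membrane, was at 7.41 on 6 weeks replicate 1 and from 7.11 to 7.48 on the others, highest on 8 weeks replicate 1, and it was not dim (mean 7.29 ± 0.12 SD, n = 10). Steap1, a metalloreductase family gene, was dim on every array, from 5.28 to 5.58, and highest on 4 weeks replicate 2. After quantile normalization both were highest on 6 weeks replicate 1, by 0.02 and 0.01, so which array leads them depends on the scaling, and 24 of 29 members then had it as their highest.

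**Figure D2:**
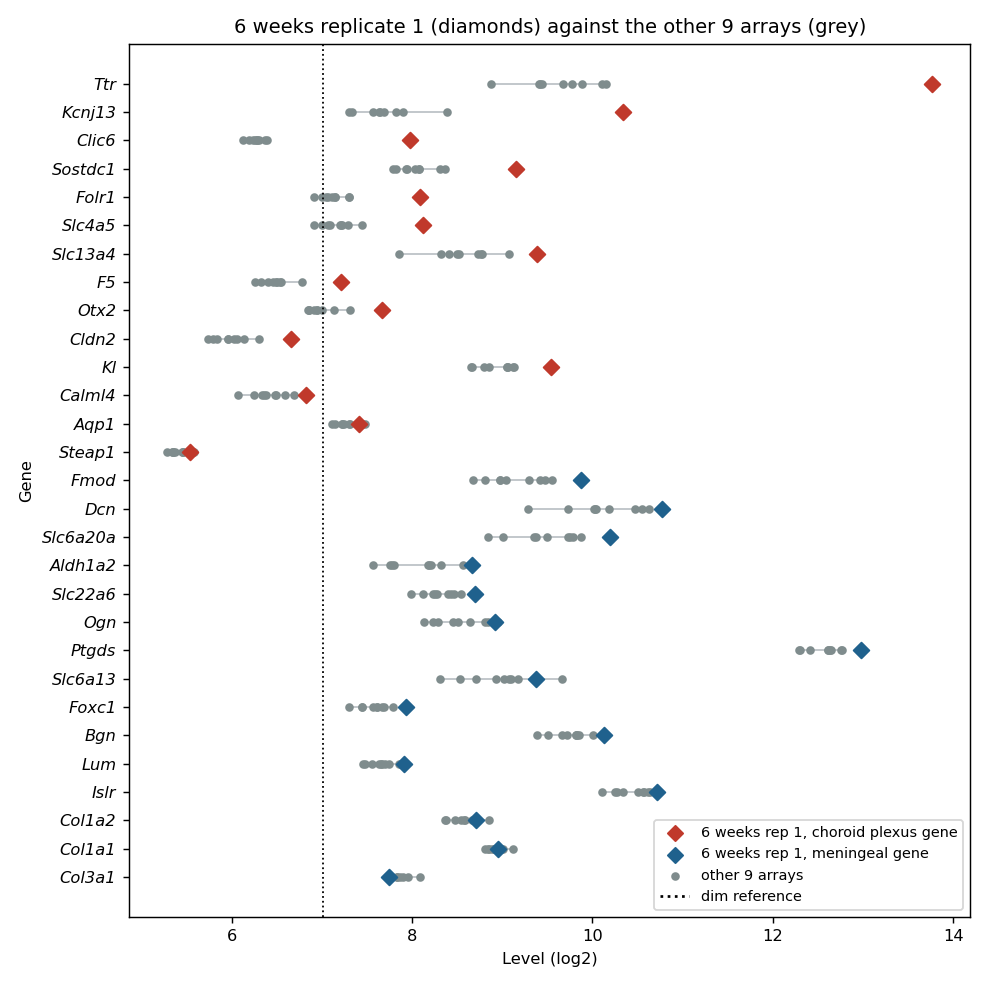
Each row is a gene and the horizontal axis is its level (log2): the diamond is 6 weeks replicate 1, grey points are the other 9 arrays, and the dotted line is the dim reference at 7.01. The red diamonds of Ttr, Kcnj13, Clic6, Sostdc1, Folr1 and Slc4a5 stand 0.68 to 3.62 clear of the grey points, while the blue diamonds of meningeal genes sit at the upper end of their grey points and those of the collagens among them.

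A choroid plexus gene was typically higher by 1.74-fold on this array than in the median of the others (median of 14 genes, range 1.12 to 17.1), and 10 of 14 were higher by at least 1.5-fold. Among all 19752 genes 38 were. The typical meningeal gene was higher by 1.27-fold (range 0.939 to 1.77 over 15 genes), and 3 of 15 reached 1.5-fold, namely Fmod, Dcn and Slc6a20a. Ranked by excess over the highest other array, the leading 10 genes of the series held 5 choroid plexus members and 3 genes of a longer choroid plexus list, and the leading 50 held 11 and 9. Meningeal members numbered 0 and 2 in the same ranks. The lists too were chosen with earlier results known, so these ranks are a description and no test.

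The small leucine-rich proteoglycans bind collagen fibrils and set their spacing. Fmod, which encodes fibromodulin (chromosome 1, 134037254 to 134048280), was at 8.97 and 8.98 at 4 weeks, 9.87 and 9.47 at 6 weeks, 9.30 and 9.55 at 8 weeks, 8.67 and 9.04 at 10 weeks, and 8.80 and 9.42 at 12 weeks. Dcn, which encodes decorin (chromosome 10, 97479500 to 97518163), was at 9.73 and 10.01, 10.77 and 10.47, 10.54 and 10.18, 9.28 and 10.03, and 10.03 and 10.63 at the same ages. Both were highest on 6 weeks replicate 1, by 0.32 and 0.14, and both were lowest on 10 weeks replicate 1. The other members of the class had smaller folds over the median of the other arrays, 1.33 for Ogn (osteoglycin), 1.25 for Bgn (biglycan) and 1.19 for Lum (lumican). Ogn was the exception in order, at 8.92 on this array and 8.95 on 8 weeks replicate 2. Dcn and Lum lie 47338 bases apart.

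Transporter genes of the meningeal cells were, like Fmod and Dcn, lowest on 10 weeks replicate 1. Slc6a20a, a proline transporter on chromosome 9 at 123636907 to 123678832, was at 9.005 and 9.378 at 4 weeks, 10.19 and 9.79 at 6 weeks, 9.72 and 9.75 at 8 weeks, 8.84 and 9.35 at 10 weeks, and 9.49 and 9.88 at 12 weeks. Slc22a6, the organic anion transporter OAT1, was 1.34-fold above the median of the others on 6 weeks replicate 1 and highest there. Slc6a13, the GABA transporter GAT2, was at 8.53 and 8.71, 9.37 and 9.08, 9.17 and 9.02, 8.31 and 8.93, and 9.10 and 9.66 at the 5 ages. It was highest on 12 weeks replicate 2 rather than on 6 weeks replicate 1, where it ranked 2.

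Enzyme and regulator genes of the meninges were also highest on that array. Aldh1a2, which makes retinoic acid, was at 8.66 there and from 7.57 to 8.57 on the others. Ptgds, the prostaglandin D synthase gene that oligodendrocytes and choroid plexus also express, was at 12.98 and from 12.29 to 12.77. Foxc1, a forkhead factor needed for meninges to form, was at 7.93 and from 7.30 to 7.79, and Islr, a gene of fibroblastic stromal cells, at 10.72 and from 10.10 to 10.63. In each of these genes the excess, from 0.09 to 0.22, was smaller than the range of the other 9 arrays.

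The fibrillar collagens differed from the rest of the meningeal group. Col1a1 and Col1a2, the chains of type I collagen, were at 8.95 and 8.71 on 6 weeks replicate 1, inside ranges of 8.80 to 9.12 and 8.36 to 8.85. Col3a1, of type III collagen, was at 7.74 there, and 7.72 to 8.09 elsewhere. All 3 were highest on 8 weeks replicate 1, also after quantile normalization. That array was the highest for 29.6% of all genes, and for 22.4% after quantile normalization. Between the arrays of 6 weeks the 3 collagens differed by -0.01, -0.00 and -0.12, against 0.14 to 0.47 for the other 12 meningeal genes.

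The pair of arrays of 6 weeks gives the plainest view of the difference, since age is the same. Replicate 1 was above replicate 2 in 14 of 14 choroid plexus genes (median difference 0.84, range 0.10 to 3.62) and in 12 of 15 meningeal genes (median 0.30, range -0.12 to 0.47), against 48.6% of all genes (median -0.00). More than 0.5 separated the arrays in 11 choroid plexus genes and 0 meningeal genes, against 0.324% of all genes, or 64. This pair held a median of 81.9% of the within-age sum of squares of a choroid plexus gene, 21.7% of that of a meningeal gene and 8.99% over all genes. Clic6 and Sostdc1 had the highest such shares, 97.2% and 97.4%, and Aqp1 had 9.35%. The within-age spread of choroid plexus genes was thus mostly that of 1 pair, and that of meningeal genes mostly was not.

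**Figure D3:**
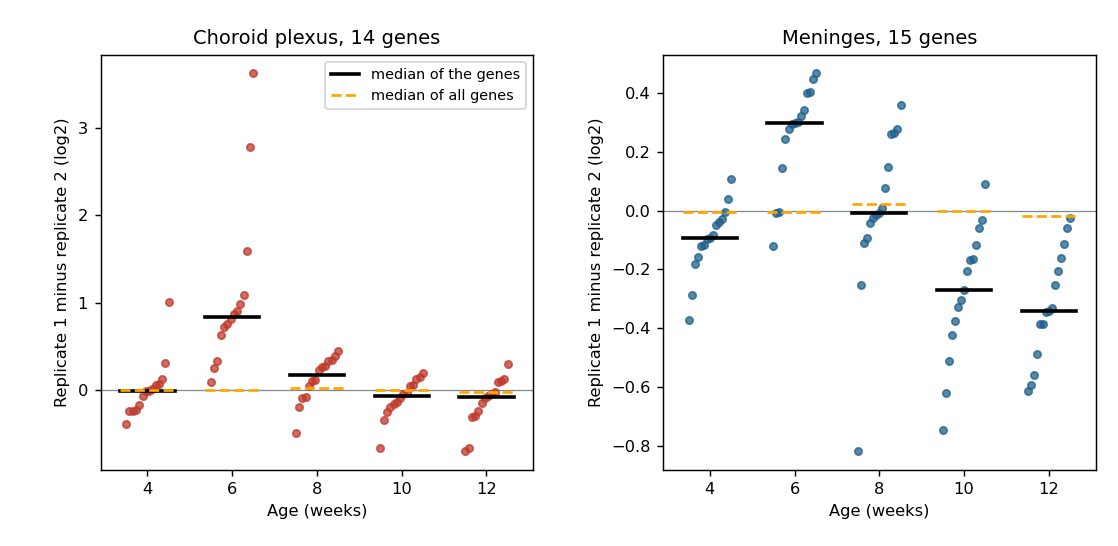
The vertical axis is replicate 1 minus replicate 2 within an age (log2), the horizontal axis is age in weeks, and each point is a gene, sorted by value within its age; black bars are medians of the group and dashed bars medians of all genes. Choroid plexus genes (left) lie above 0 together only at 6 weeks. Meningeal genes (right, on a smaller scale) lie mostly above 0 at 6 weeks and mostly below 0 at 4, 10 and 12 weeks.

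At 10 and 12 weeks the meningeal genes separated the arrays the other way, as they did by less at 4 weeks (median difference -0.09). Replicate 1 was above replicate 2 in 1 of 15 meningeal genes at 10 weeks (median difference -0.27), where the share of all genes was 49.2%. At 12 weeks it was above in 0 of 15 (median -0.34; 43.8% of all genes). Choroid plexus genes showed 5 of 14 (median -0.07) and 4 of 14 (median -0.08) at those ages. At 4 weeks the counts were 6 of 14 and 2 of 15 (48.1% of all genes), and at 8 weeks 10 of 14 and 7 of 15 (54.7%). The array of 10 weeks replicate 1 was the lowest of the 10 in 11 of 15 meningeal genes and 1 of 14 choroid plexus genes, against 8.23% of all genes. In 9 of 15 meningeal genes the difference at 12 weeks was larger in size than that at 6 weeks, and in 2 of 14 choroid plexus genes.

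Slc13a4, counted as a choroid plexus gene, had features of both orders. It was at 8.32 and 8.50 at 4 weeks, 9.39 and 8.76 at 6 weeks, 8.77 and 8.73 at 8 weeks, 7.85 and 8.52 at 10 weeks, and 8.41 and 9.07 at 12 weeks. Like most meningeal genes it was lowest on 10 weeks replicate 1, and the arrays of 10 and of 12 weeks each differed by -0.66. Among the 14 choroid plexus genes it was the only one lowest on that array. Which cells carried it was not tested.

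Endothelial genes moved with the meningeal genes on some arrays. The mean level of 11 endothelial genes, led by Itm2a, Flt1, Cdh5 and Cldn5, was 9.09 on 12 weeks replicate 2, 8.66 on 10 weeks replicate 1 and 8.98 on 6 weeks replicate 1. The highest and lowest of the other 9 arrays were thus the same as for the meningeal members, whose mean was 9.31, 8.74 and 9.44 on those 3 arrays. Replicate 1 was above replicate 2 in 0 of 11 endothelial genes at 10 weeks and at 12 weeks (medians -0.12 and -0.27). Mural cell genes had a mean from 8.01 to 8.28 and were highest on 6 weeks replicate 1 in 0 of 12 genes. The part of vessels in the meningeal differences was not tested.

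The means of other cell types on 6 weeks replicate 1 lay inside their range elsewhere, except astrocytes (11.23 against 11.07 to 11.19). At 6 weeks replicate 1 was above replicate 2 in 11 of 12 granule cell, 9 of 11 endothelial and 6 of 7 microglial genes. Their median differences were 0.10, 0.10 and 0.08. The counts were 7 of 10 for astrocytes, 5 of 8 for border macrophages and 6 of 12 for ependyma. Mural cells had 3 of 12, oligodendrocytes 3 of 11 and blood 1 of 3. The choroid plexus members had a mean level of 8.41 on 6 weeks replicate 1 and 7.18 to 7.42 on the other 9 arrays. The meningeal members had 9.44 there, and 8.74 to 9.31 on the others. Ependyma, the ciliated ventricular lining next to the choroid plexus, was at 7.15 against 6.99 to 7.28, with 7 of its 12 genes dim and 0 of 12 highest on that array. Foxj1, its master regulator of motile cilia, was at 7.57 against 7.40 to 7.69. Microglial genes were highest there in 0 of 7, oligodendrocyte genes in 2 of 11, astrocyte genes in 3 of 10 and granule cell genes in 2 of 12. Of 8 genes of border macrophages, the resident macrophages of meninges and choroid plexus stroma, 2 were highest there: Pf4 at 7.70 against 6.85 to 7.36, and Lyve1 at 7.86 against 7.16 to 7.54. The dim genes as a class were slightly lower on that array than in their own medians (median difference -0.06), so the dim choroid plexus genes differed from other dim genes in sign.

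**Figure D4:**
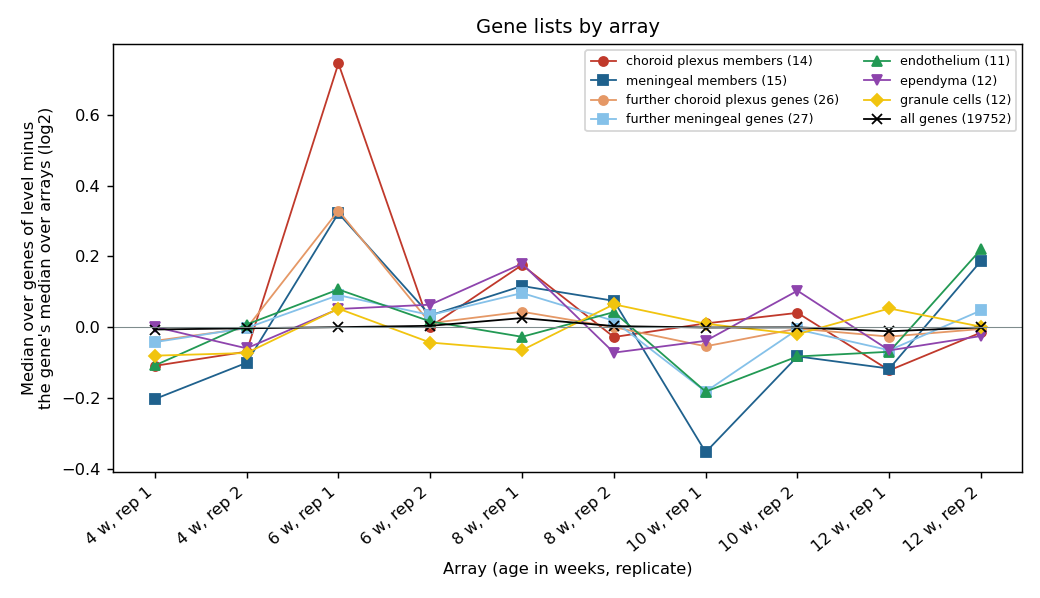
The vertical axis is the median over a list's genes of the level minus the gene's median over arrays (log2), and the horizontal axis gives the 10 arrays; lines join the points of a list only to guide the eye, since arrays have no order beyond age. Choroid plexus members reach 0.74 on 6 weeks replicate 1 and stay within -0.12 and 0.18 elsewhere, meningeal members run from -0.35 to 0.32, and endothelial genes reach 0.22 on 12 weeks replicate 2.

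Longer lists of the same tissues, which hold no member, differed less on this array. Of 26 further choroid plexus genes 18 were highest on 6 weeks replicate 1, against 10.3% of all genes. Their mean level was 8.42 there against 8.01 to 8.20 on the others. Of 27 further meningeal genes 9 were highest there, with a mean of 8.16 against 7.77 to 8.15. Another 10 of the 27 were highest on 8 weeks replicate 1, against 29.6% of all genes. The lowest array of the others was 10 weeks replicate 1 for both lists. Outside the members, the 10 largest excesses on 6 weeks replicate 1 belonged to Gh, Htr2c, Ace, Ecrg4, Sulf1, Prr32, Lbp, Cldn1, Vat1l and Clec2d. Htr2c, the serotonin receptor 5-HT2C that is abundant in choroid plexus, was at 8.87 against 7.54 to 7.74. Ace, the angiotensin-converting enzyme, was at 9.08 against 8.08 to 8.22, and Ecrg4, a secreted peptide precursor of choroid plexus, at 8.63 against 7.37 to 7.77. Gh, the growth hormone gene, was at 10.42 against 7.68 to 9.28, and so varied widely on the other arrays too. Htr2c, Ace, Ecrg4 and Cldn1 were on the longer choroid plexus list.

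Genes next to the members on the chromosome did not share the pattern as a class. Of 46 neighbouring genes within 100 kb, 5 were highest on 6 weeks replicate 1 (10.9%, near the 10.3% of all genes), and their median difference between the arrays of 6 weeks was 0.01. Folr2, 1141 bases from Folr1, and Slc22a8, 6161 bases from Slc22a6, were not among them. The largest excesses among the 5 were those of Omd, next to Ogn and itself dim, at 0.30, and Steap2, next to Steap1, at 0.29.

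Promoter sequences are shown for the 2 genes of each group with the largest excess on 6 weeks replicate 1 among those with an entry, so that genes which moved together can be compared by letter. RefSeq's table for GRCm38.p6 held 27 promoters of 22 measured members, and none of Ttr, Folr1, Clic6, Sostdc1, Col1a1, Lum and Dcn. The 250 bases before an annotated start are printed 5′ to 3′ on the strand of the gene. For Slc4a5 that start lies inside the gene, which spans 83207580 to 83304945. Positions are chr1:87394730-87394979 (minus strand) for Kcnj13, chr6:83237125-83237374 (plus) for Slc4a5, chr1:134037004-134037253 (plus) for Fmod and chr9:123678833-123679082 (minus) for Slc6a20a. Capitals mark matches, on either strand, to the CCAAT box (CCAAT) or the TATA box (TATAAA).
Kcnj13: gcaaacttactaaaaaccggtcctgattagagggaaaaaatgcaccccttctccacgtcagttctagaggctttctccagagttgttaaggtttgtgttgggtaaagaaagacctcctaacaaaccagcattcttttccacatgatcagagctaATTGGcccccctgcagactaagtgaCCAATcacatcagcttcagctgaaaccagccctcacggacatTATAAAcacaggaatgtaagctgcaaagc
Slc4a5: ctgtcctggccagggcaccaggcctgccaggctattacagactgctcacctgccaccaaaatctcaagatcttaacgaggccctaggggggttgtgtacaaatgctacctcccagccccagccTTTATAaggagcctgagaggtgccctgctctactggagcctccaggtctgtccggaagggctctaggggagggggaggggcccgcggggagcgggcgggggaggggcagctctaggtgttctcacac
Fmod: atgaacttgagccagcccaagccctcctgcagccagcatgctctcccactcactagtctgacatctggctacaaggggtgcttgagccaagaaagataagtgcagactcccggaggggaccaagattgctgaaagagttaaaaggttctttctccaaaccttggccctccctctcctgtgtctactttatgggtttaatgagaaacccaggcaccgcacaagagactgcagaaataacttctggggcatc
Slc6a20a: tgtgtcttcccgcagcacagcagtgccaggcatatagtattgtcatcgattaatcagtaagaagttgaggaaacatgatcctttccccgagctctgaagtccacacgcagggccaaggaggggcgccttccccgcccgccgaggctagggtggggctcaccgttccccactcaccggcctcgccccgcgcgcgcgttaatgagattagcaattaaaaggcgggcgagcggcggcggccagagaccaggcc

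Kcnj13 held CCAAT on both strands and TATAAA close to the start, Slc4a5 held TATAAA on the reverse strand, and Fmod and Slc6a20a held no match. TATAAA was in 6 of the 27 promoters (22.2%), against 12.4% of 32851 promoters of the same length, and CCAAT in 8 (29.6%, against 33.8%). The core bound by OTX proteins, TAATCC, was in 3 (11.1%, against 6.25%), one each of Otx2, Slc22a6 and Slc6a13. Of these genes Otx2 is a choroid plexus gene, and the others are meningeal. The forkhead core TGTTTAC was in 0, against 3.17%. All motifs were sought on both strands, CCAAT and its reverse complement ATTGG can share letters, and Otx2 and Slc6a13 have several promoters each. These are descriptions of letters in this window only.

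Age was tested with limma on all 10 arrays, with Benjamini-Hochberg adjustment over 19752 genes and a threshold of 0.05. In the comparison of 6 with 4 weeks 0 members passed, and 0 genes of the whole table did (0%). At an unadjusted p under 0.05 limma had 14 of 29 members, all higher at 6 weeks, against 4.13% of all genes in either direction and 2.24% higher. These were 7 choroid plexus and 7 meningeal genes. Ttr had a difference of 2.58 ± 0.91 (SE; adjusted p = 1), from 9.38 ± 0.71 to 11.96 ± 2.56 (SD, n = 2), so its SD at 6 weeks was nearly as large as the difference. Aldh1a2 had a difference of 0.66 ± 0.14 (adjusted p = 0.56), from 7.77 to 8.44 on average, and Slc6a20a of 0.80 ± 0.21 (adjusted p = 0.84).

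The median difference of 6 from 4 weeks was 0.48 over choroid plexus genes, with 13 of 14 above 0. Over meningeal genes it was 0.36 (15 of 15), and over all genes 0.01 (10465 of 19752). Without 6 weeks replicate 1 these medians were 0.12 (10 of 14), 0.20 (15 of 15) and 0.01 (10868 of 19752). The choroid plexus value thus moved by more than 1.5 times on leaving out that 1 array. So did the meningeal one, which kept its sign in every gene. With all arrays, 11 of 11 endothelial, 8 of 8 border macrophage and 11 of 12 ependymal genes were also above 0. Their medians were 0.14, 0.11 and 0.08. So were 10 of 12 mural cell and 9 of 12 granule cell genes. Fewer were above 0 among astrocyte (6 of 10), microglial (3 of 7), oligodendrocyte (3 of 11) and blood genes (1 of 3). Both arrays of 6 weeks were above both of 4 weeks in 13 of 15 meningeal genes, all but 2 of the fibrillar collagens, and in 9 of 14 choroid plexus genes, against 19.8% of all genes. With 6 weeks replicate 2 left out instead, the median was 0.89 over choroid plexus genes, 0.44 over meningeal genes and 0.00 over all genes. Ttr was at 4.39, Kcnj13 at 2.84, Clic6 at 1.73, Kl at 0.88 and Sostdc1 at 0.82. That fit compares 1 array of 6 weeks with 4 weeks and assumes that it varies like the other ages. The array it keeps is the array on which these 5 genes stood highest, which was known beforehand, so these values restate that and test nothing.

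The comparison of 8 with 6 weeks shares the arrays of 6 weeks with the one above. Here too 0 members and 0 genes passed (0%). At an unadjusted p under 0.05 limma had 3 members, all lower at 8 weeks, against 6.25% of all genes and 1.56% lower. They were Ttr (-2.42 ± 0.91, SE), Clic6 (-0.94 ± 0.38) and Sostdc1 (-0.63 ± 0.26), each with an adjusted p of 0.80. The median difference was -0.27 over choroid plexus genes, -0.09 over meningeal genes and 0.01 over all genes. Without 6 weeks replicate 1 the choroid plexus median was 0.04.

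Between 4 and 12 weeks 0 members passed, where 0.516% of all genes did. At an unadjusted p under 0.05 limma had 4 members, all meningeal and all higher at 12 weeks, against 9.57% of all genes and 4.15% higher. Aldh1a2 was at 7.75 and 7.79 at 4 weeks, 8.66 and 8.21 at 6 weeks, 8.18 and 8.18 at 8 weeks, 7.57 and 7.78 at 10 weeks, and 8.32 and 8.57 at 12 weeks. It was high at 6 and 12 weeks and low at 4 and 10, with a difference of 0.67 ± 0.14 (SE) between 12 and 4 weeks (adjusted p = 0.11). Slc6a13 had 0.76 ± 0.22 (adjusted p = 0.27), Slc6a20a 0.49 ± 0.21 (0.48) and Islr 0.27 ± 0.09 (0.32). Aldh1a2 passed in 5 of 18 alternative fits, and its adjusted p from limma ran from 0.019 to 0.53 over all 18. Among the 5 are the fits without 6 weeks replicate 1 and without 6 weeks replicate 2. Those give this comparison the same result, since a lone array adds no spread, so the 5 are not separate results. Both arrays of 12 weeks were above both of 4 weeks in 7 of 15 meningeal genes and 2 of 14 choroid plexus genes, against 21.6% of all genes.

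Over the whole series the linear trend called 0 members, where 0.82% of all genes passed, and the test for any difference among ages 0, where 0.167% did. At an unadjusted p under 0.05 limma had 1 member in the trend (11.7% of all genes) and 7 in the test of any age (8.46%). The 7 were Dcn, Slc6a13, Fmod, Islr, Aldh1a2, Ptgds and Slc6a20a, all meningeal. The median trend, as change over 8 weeks, was -0.06 for choroid plexus genes, -0.01 for meningeal genes and 0.00 for all genes. Without 6 weeks replicate 1 both signs turned, with medians of 0.08 (10 of 14 genes above 0, against 4 of 14 on all arrays) and 0.04, and 0.00 for all genes.

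Kl and Sostdc1 had trends of opposite sign, and the estimates of both moved on leaving out 6 weeks replicate 1. Those of other members moved too, that of Ttr from -0.63 to 0.20 and that of Kcnj13 from -0.50 to 0.03. Kl was at 8.66 and 8.66 at 4 weeks, 9.54 and 8.79 at 6 weeks, 8.85 and 9.05 at 8 weeks, 9.11 and 9.06 at 10 weeks, and 9.06 and 9.13 at 12 weeks. Apart from 6 weeks replicate 1, both arrays of 10 and of 12 weeks lay above all arrays of 4 and 6 weeks, and 8 weeks replicate 2 was level with the lowest of them. Its trend was 0.31 ± 0.19 (SE, adjusted p = 0.59) on all arrays and 0.46 ± 0.07 (adjusted p = 0.020) without 6 weeks replicate 1. Sostdc1 went the other way, at 8.36 and 8.31 at 4 weeks, 9.15 and 8.07 at 6 weeks, 8.03 and 7.93 at 8 weeks, 8.07 and 7.94 at 10 weeks, and 7.78 and 7.83 at 12 weeks. Its trend was -0.67 ± 0.25 (adjusted p = 0.29) on all arrays and -0.47 ± 0.08 (adjusted p = 0.027) without that array. These fits left out the array on which the genes stood highest, a choice made with its values known, and over all 18 alternatives the adjusted p ran from 0.016 to 0.89 for Kl and from 0.023 to 0.49 for Sostdc1. Klotho is also made by hippocampal neurons, and in which cells either gene differed was not tested. Kl lies on chromosome 5 at 150952607 to 150993817 and Sostdc1 on chromosome 12 at 36314169 to 36318452.

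**Figure D5:**
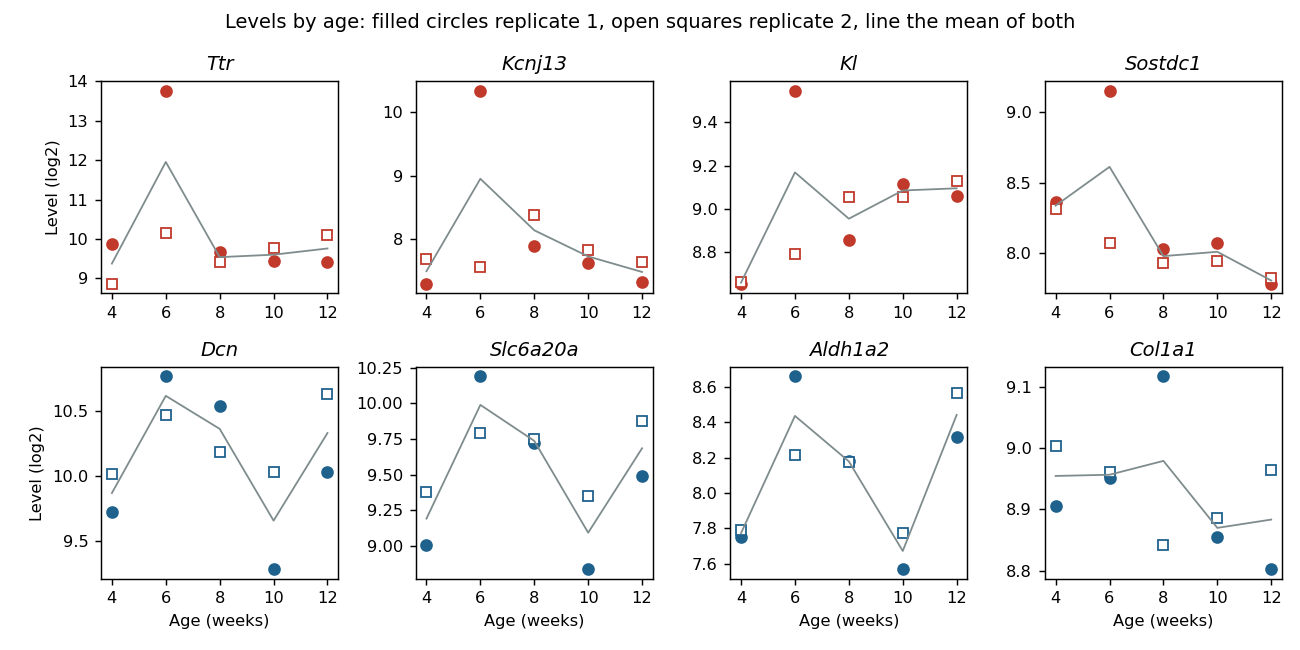
Level (log2) against age in weeks for 4 choroid plexus genes (top) and 4 meningeal genes (bottom), with filled circles for replicate 1, open squares for replicate 2 and the line through their means; vertical scales differ between panels. Ttr and Kcnj13 have a single high point, Kl is higher and Sostdc1 lower at 12 than at 4 weeks on both arrays, Dcn, Slc6a20a and Aldh1a2 are low at 4 and 10 weeks, and Col1a1 spans only 8.80 to 9.12.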

How the data were processed

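Total RNA of dentate gyri was measured on 10 Affymetrix arrays, 2 at each of 5 ages. The deposited log2 values cover 25254 probe sets; the genome build is mm10 per the submitters' processing notes, and the log base, background correction and normalization are not given in the sources used here. The platform annotation names 1 gene for 21496 probe sets, several for 1565 and none for 2193; the first kind gave 19752 genes, with the brightest probe set kept for 938 genes with several. Positions and promoters are RefSeq's for GRCm38.p6, and all 29 measured members matched by symbol.

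Tests were two-sided fits with limma 3.58.1 in R 4.3.3 with no dim filter: age as a number (8 residual degrees of freedom) or as a factor (5), adjusted by Benjamini-Hochberg over all genes, and tested on simulated data. Errors of differences are SEs, those of means SDs, and the number of arrays limits their precision. The report names all members, up to 4 genes of highest mean per other list, and the 10 other genes with the largest excess on 6 weeks replicate 1; further genes (genomic neighbours, Xist and Kdm5d) were chosen after their values were seen. Members, lists and tests were chosen with earlier results of these data known. Alternative fits used quantile normalization, median centring, the mean over probe sets, array weights, trended and robust variances, the replicate number as a block, all but the dimmest 30% of genes, and all arrays but 1, or but both that stood apart.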

Additional observations from a re-analysis of the deposited data

How the results depend on the processing

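No result that passed in the fit of all arrays or in an alternative had opposite signs in those 2 fits, but alternatives differed from each other: Sostdc1 between 6 and 4 weeks was at 0.82 without 6 weeks replicate 2, where it passed, and at -0.27 without replicate 1, and Kcnj13 between 8 and 6 weeks was at -2.20, where it passed, and at 0.58 in the same fits. The 87 recomputed differences between the arrays of 6 weeks moved by less than the within-age SD, which includes the 6-week difference itself. Those from the mean over probe sets could not move, since each member has 1 probe set. Median centring shifts all genes of an array alike, so these recomputations are a weak check. Members highest on 6 weeks replicate 1 numbered 22, and 24 after quantile normalization. The trend called 162 genes, 337 with the dimmest left out, 417 with array weights, 363 with trended and robust variances, and 35 to 279 on leaving out each array; members numbered 0, or 2 (Kl and Sostdc1) without 6 weeks replicate 1 and also without both arrays that stood apart. Any difference among ages called 33 genes, 69 with the dimmest left out, 69 with array weights, 158 with trended and robust variances, and 5 to 50 on leaving out each array; members numbered 0, or 2 (Islr and Aldh1a2) with trended and robust variances and 4 (Ttr, Clic6, Kcnj13 and Sostdc1) without 6 weeks replicate 2. The comparison of 12 with 4 weeks called 102 genes, 210 with the dimmest left out, 261 with array weights, 304 with trended and robust variances, and 13 to 188 on leaving out each array. Its members numbered 0, or 1 (Aldh1a2) with the dimmest left out or trended and robust variances, 2 (Sostdc1 and Aldh1a2) without either array of 6 weeks, and 3 (also Kl) without both arrays that stood apart. The comparison of 6 with 4 weeks called 0 genes, 1 after quantile normalization, 3 with the dimmest left out, 3 with array weights, 11 with trended and robust variances and 0 to 10 on leaving out each array, with 5 members without 6 weeks replicate 2. That of 8 with 6 weeks called 0, and 0 to 1079 on leaving out each array, with 1079 without 8 weeks replicate 2 and 7, of which 4 were members (Ttr, Clic6, Kcnj13 and Sostdc1), without 6 weeks replicate 2. Leaving out an array of 6 weeks leaves that age with no spread of its own; the cause of the other shifts was not tested.

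The replicate number as a block called 0 members in every test, 13 genes among any ages and 66 between 12 and 4 weeks, and 161 in the trend. Deviations of same-numbered arrays correlated between -0.34 and 0.16, above 0.1 in 3 of 10 pairs of ages. Over all genes they thus had no deviation common to every age, while a deviation shared by some ages was not tested. Replicate 1 was the higher in 2, 1 and 0 of 15 meningeal genes at 4, 10 and 12 weeks. At 6 and 8 weeks it was the higher in 12 and 7 of them. Whether same-numbered arrays were handled together cannot be read from this and was not tested. With 2 arrays an age, a single array can decide a value. Differences of genes near the dim reference may be compressed, which was not tested.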
